A study of Homo sapiens with 20 samples.

Results

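The AP-1 subunits of the FOS and JUN families were followed across *ADAR* knockout (KO) and interferon-β (IFN-β) treatment in 4 human lung cancer cell lines. The 7 genes were chosen by symbol, as *FOS*, *FOSB*, *FOSL1*, *FOSL2*, *JUN*, *JUNB* and *JUND*, and each matched 1 of the 58233 Ensembl gene identifiers counted. RNA-seq libraries came from HCC366 (adenosquamous carcinoma), NCI-H1650 (adenocarcinoma), NCI-H196 (variant small cell lung cancer) and A549 (adenocarcinoma) cells with lentiviral Cas9 and an sgRNA against *ADAR* or against *GFP*, a gene these cells lack. RNA of HCC366, NCI-H1650 and NCI-H196, the ADAR1-dependent cell lines, was taken without further treatment, 5 days after they received the sgRNA. A549, an *ADAR* KO-insensitive line, was kept for 24 h with IFN-β at 10 ng/mL or with its vehicle, sterile water. There were 20 libraries in 10 conditions, and the 2 libraries of a condition carry different sgRNAs to the same target (sg1 and sg2). These 2 sgRNAs were the replicates, so errors cover the spread between sgRNAs and not repeats of the experiment. The sources describe no cloning of the edited cells.

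AP-1 is a dimer of basic leucine zipper proteins that binds DNA at short palindromic sites. JUN proteins pair with each other or with FOS proteins, and FOS proteins need a JUN-type partner to bind. *FOS*, *FOSB*, *JUN* and *JUNB* are immediate-early genes, which are transcribed within minutes of a growth factor, cytokine or stress signal through mitogen-activated protein kinases. *FOSL1* (FRA-1) and *FOSL2* (FRA-2) lack the strong activation domain of FOS, and *JUND* is expressed in many resting cells. *ADAR* encodes ADAR1, the enzyme that converts adenosine to inosine in double-stranded RNA.

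On GRCh37, *FOS* (ENSG00000170345) lies at chr14:75745529-75748933, *FOSB* (ENSG00000125740) at chr19:45971253-45978437 and *FOSL2* (ENSG00000075426) at chr2:28615315-28640184, all on the plus strand, and *FOSL1* (ENSG00000175592) at chr11:65659520-65668044 on the minus strand. The canonical transcript of each of these has 4 exons. *JUN* (ENSG00000177606, chr1:59242517-59249720, minus strand), *JUNB* (ENSG00000171223, chr19:12902300-12904129, plus strand) and *JUND* (ENSG00000130522, chr19:18390504-18392432, minus strand) have 1 exon. Exons of *JUNB* overlap those of *HOOK2* on the opposite strand, and *HOOK2* had at most 252 reads in any library. *JUND* had the highest GC content of the longest transcripts, at 69.9%, against 52.8% for *FOS*.

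Promoters are shown because immediate-early genes are known to be regulated there. RefSeq (GRCh38.p14) gave the 250 bases before the start of 6 members, and *FOSL1* had no entry. The 4 printed here were picked by log2 fold change after *ADAR* KO in A549 cells with IFN-β. They are those of the 3 subunits with the largest values there and of *JUND*, which had the smallest. They are written 5′ to 3′ on the strand of the gene, with capitals on TGACG (the core of a cAMP response element, or CGTCA where it lies on the other strand) and on the 8-base form TGANNTCA. *FOS* is chr14:75278578-75278827 (plus strand), *FOSB* chr19:45467746-45467995 (plus), *JUN* chr1:58784048-58784297 (minus) and *JUND* chr19:18281623-18281872 (minus).
FOS: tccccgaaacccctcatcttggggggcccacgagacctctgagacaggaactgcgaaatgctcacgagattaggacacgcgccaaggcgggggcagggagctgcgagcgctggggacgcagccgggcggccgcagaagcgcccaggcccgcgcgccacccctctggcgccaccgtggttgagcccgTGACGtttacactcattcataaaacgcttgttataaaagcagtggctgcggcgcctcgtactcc
FOSB: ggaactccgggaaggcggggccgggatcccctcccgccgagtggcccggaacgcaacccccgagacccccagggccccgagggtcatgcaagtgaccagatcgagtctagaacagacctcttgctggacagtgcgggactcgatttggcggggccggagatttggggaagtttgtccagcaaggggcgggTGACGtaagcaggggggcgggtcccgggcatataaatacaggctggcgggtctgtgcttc
JUN: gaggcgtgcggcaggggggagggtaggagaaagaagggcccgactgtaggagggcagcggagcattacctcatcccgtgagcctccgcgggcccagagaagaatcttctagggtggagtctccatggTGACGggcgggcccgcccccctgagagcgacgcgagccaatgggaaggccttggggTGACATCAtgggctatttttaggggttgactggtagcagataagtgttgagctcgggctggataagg
JUND: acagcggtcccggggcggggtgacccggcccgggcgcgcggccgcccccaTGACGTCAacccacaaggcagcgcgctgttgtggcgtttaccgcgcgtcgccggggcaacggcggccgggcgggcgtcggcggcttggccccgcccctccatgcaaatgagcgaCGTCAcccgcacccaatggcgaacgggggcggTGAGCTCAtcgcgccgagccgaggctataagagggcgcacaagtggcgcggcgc
All 6 promoters held TGACG on one strand or the other, as did 21.2% of the 35116 human promoters in the table. It lay at -64 to -60 from the start of *FOS*, at -60 to -56 in *FOSB*, at -66 to -62 in *FOSL2*, at -123 to -119 in *JUN* and at -137 to -133 in *JUNB*. The full element TGACGTCA, found in 1.65% of promoters, was at -200 to -193 in *JUND* alone among the 6, and the shorter motifs lie within it. *JUND* also had CGTCA at -86 to -82 and the TGANNTCA form TGAGCTCA at -54 to -47. *JUN* had TGACATCA at -67 to -60, a TGANNTCA form that 10.1% of promoters hold. TATAAA was in the promoters of *FOS*, *FOSB* and *JUNB* and in 10.7% of all. CCAAT, in 32% of all promoters, was in those of the 3 JUN genes. The 7-base AP-1 site TGANTCA (6.57% of promoters) and the CArG box bound by serum response factor (1.16%) had no match in these 6 windows, searched on both strands. Bases upstream of these windows were not searched, so sites there would be missed. A match is a run of letters, not a shown binding site.

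Total gene counts ranged from 62679 to 19520189 per library, with a median of 6411279. The lowest was NCI-H196 GFP sg2, in which 1 read equals 14.7 CPM (counts per 1e+06 counts), so its subunit values rest on 0 reads for *FOS*, 1 for *FOSB*, 3 each for *FOSL1* and *JUND*, 4 for *JUNB*, 9 for *JUN* and 15 for *FOSL2*, and its *ADAR* value on 59 reads. HCC366 had 1116439 to 3440707 counts, and its ADAR sg2 library stood apart, with 85.6% of its alignments not unique. Transcript GC content and length accounted for 50.1% of the variance of its deviations in log2 CPM from the mean of the HCC366 libraries. For HCC366 GFP sg2 this share was 34.4%. Keratins *KRT8* and *KRT18* were high in HCC366, NCI-H1650 and A549 (*KRT18* medians of 790.1, 992 and 1010 CPM), whereas *EPCAM* had a median of 1.21 CPM in HCC366 and 0.273 CPM in A549. NCI-H196 had mesenchymal *VIM* (median 1918 CPM) and *COL1A1* (median 2215 CPM). A549 also had *VIM* (median 806 CPM) and mesenchymal *CDH2* (median 131 CPM, against 118 CPM in NCI-H196). The neuroendocrine factors *NEUROD1* and *INSM1* were at 0 in the 4 libraries of NCI-H196. Squamous *TP63* and *KRT5* had medians of 2.08 and 0.765 CPM in HCC366, where a squamous component is labelled, and the *TP63* median was 23.5 CPM in NCI-H196. Summed epithelial markers were 2551 to 2677 CPM in HCC366 GFP and 1629 to 1890.2 CPM in HCC366 *ADAR* KO libraries, and endothelial *CDH5* was 1.87 to 2.14 CPM against 3.26 to 7.41 CPM in the same libraries. The part of these differences in the results was not tested. The T cell and myeloid markers *CD3E* and *LYZ* were at 0 in every library, and *PTPRC* was at most 2.43 CPM. In NCI-H196, summed fibroblast markers were 1903 to 2040 CPM with *GFP* and 2635 to 2706 CPM with *ADAR* sgRNAs, and summed neuroendocrine markers in NCI-H1650 were 14.6 to 18.9 CPM against 23.4 to 25.2 CPM. Their part in the results was not tested either.

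*ADAR* RNA was lower with *ADAR* sgRNAs in every line. In CPM scaled by the trimmed mean of M-values (TMM) within the line, *GFP* and *ADAR* libraries had 804 and 1101 against 571 and 490.2 in HCC366, 621 and 760.5 against 296 and 268 in NCI-H1650, and 664 and 865 against 564 and 482 in NCI-H196. In A549 cells with vehicle the values were 436 and 437 CPM against 161 and 250.1 CPM, and with IFN-β they were 1219 and 1193 CPM against 691 and 895 CPM. The *ADAR* libraries lay below the *GFP* libraries in all 5 comparisons, with log2 fold changes of -0.84 ± 0.31 (SE, n = 2 per group), -1.29 ± 0.11, -0.41 ± 0.11, -1.08 ± 0.13 and -0.60 ± 0.13 in that order. The HCC366 value did not pass the test used below. Cas9 cuts leave RNA that can still be counted, so these levels are not the share of edited alleles.

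The levels of the subunits in *GFP* cells were compared first, since no *ADAR* KO library is on either side of that comparison. The scaling and the spread of the fit still came from all 20 libraries. Levels between genes are given per length, as RPKM (CPM per kilobase of exon) with TMM over all 20 libraries. *FOS* and *FOSB* were the least abundant subunits in every line. In A549 with vehicle, *FOS* was at 0.648 ± 0.290 RPKM (mean ± SD, n = 2) and *FOSB* at 0.346 ± 0.0818 RPKM, whereas *FOSL2* was at 96 ± 3.5 RPKM and *FOSL1* at 85.5 ± 5.91 RPKM. The order there was *FOSL2*, *FOSL1*, *JUNB*, *JUN*, *JUND*, *FOS* and *FOSB*, and only *JUNB* and *JUN* overlapped as neighbours. NCI-H1650 had JUN-family genes on top, with *JUNB* at 67.1 ± 10.2 RPKM, *JUND* at 57.6 ± 5.55 RPKM and *JUN* at 47.2 ± 6.18 RPKM, and *JUNB* overlapped *JUND*. In HCC366, *FOSL1* (52.7 ± 20.3 RPKM) and *JUN* (49.7 ± 6.09 RPKM) led and overlapped. In NCI-H196 the 5 subunits other than *FOS* and *FOSB* lay between 25.7 and 34.2 RPKM, and their ranges overlapped.

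Between lines, 22 of 42 comparisons of a subunit in 2 lines passed edgeR's quasi-likelihood test at an adjusted p under 0.05, 11 in each direction. The differences come from 1 fit of all 20 libraries. CPM in this paragraph are scaled within each line, so CPM of 2 lines need not give the printed difference. Of all genes tested, 41% passed between HCC366 and NCI-H1650, 43.2% between HCC366 and NCI-H196, 50.8% between HCC366 and A549, 46.7% between NCI-H1650 and NCI-H196, 53.8% between NCI-H1650 and A549 and 57.8% between NCI-H196 and A549, so the share among the subunits was near the background. *FOS* in NCI-H1650 (15.2 and 13.9 CPM) was above *FOS* in A549 (2.24 and 1.13 CPM) by 2.75 ± 0.37 on the log2 scale (edgeR adjusted p = 1.36e-07) and above HCC366 (3.10 and 2.29 CPM), the HCC366 value being -2.45 ± 0.48 relative to NCI-H1650 (edgeR adjusted p = 0.000108). *FOSB* in NCI-H1650 (26.7 and 25.8 CPM) exceeded *FOSB* in A549 (1.32 and 1.79 CPM) by 3.53 ± 0.35 (edgeR adjusted p = 2.09e-10). The FRA genes ran the other way. *FOSL2* in A549 was at 553 and 564 CPM, and NCI-H1650 lay below it by a log2 difference of -1.46 ± 0.20 (edgeR adjusted p = 2.07e-07), NCI-H196 by -1.50 ± 0.22 (edgeR adjusted p = 7.93e-07) and HCC366 by -1.15 ± 0.20 (edgeR adjusted p = 1.35e-05). *FOSL1* was likewise lower than in A549 in all 3 ADAR1-dependent lines, with log2 differences between -0.74 and -1.46. The smallest, that of HCC366, depended on single libraries, at -1.19 without HCC366 GFP sg1 and -0.40 without HCC366 GFP sg2. *JUNB* was higher in NCI-H1650 than in each other line (by 0.76 ± 0.20 over A549 and 1.14 ± 0.25 over NCI-H196 on the log2 scale, with HCC366 at -0.97 ± 0.22 relative to NCI-H1650). *JUND* was higher in NCI-H1650 than in A549 by 1.24 ± 0.29 (edgeR adjusted p = 0.000476). *JUN*, the founding member of the JUN family, passed in none of its 6 comparisons, with log2 differences between 0.07 and 0.41.

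**Figure D1:**
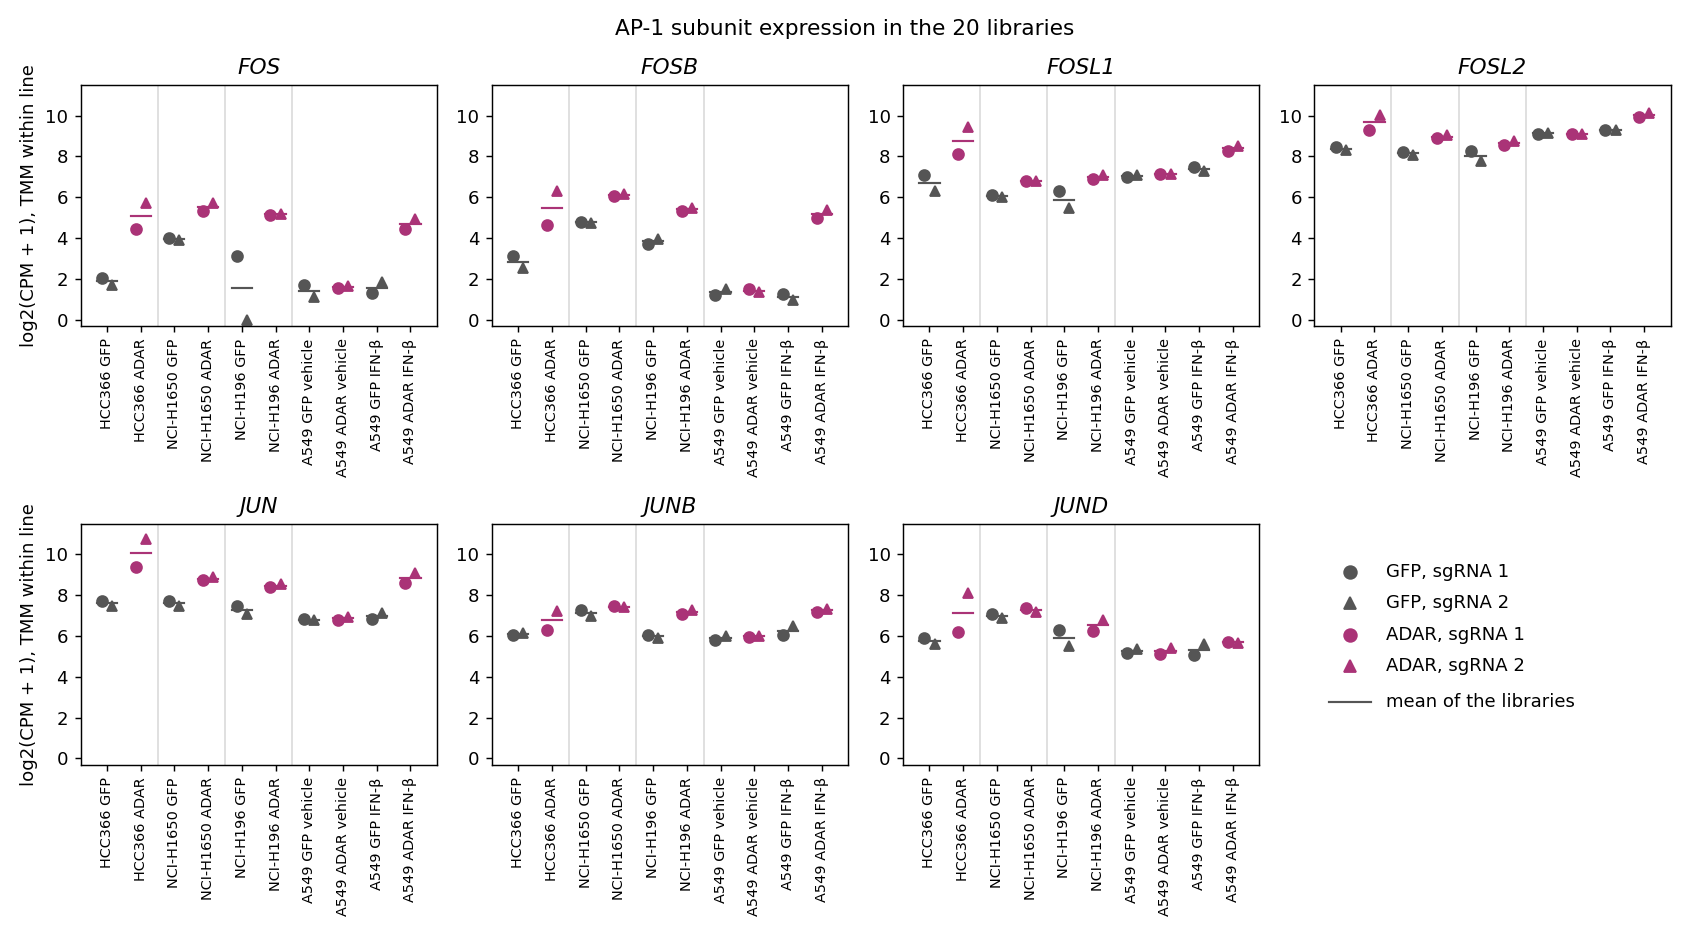
Expression of the 7 subunits as log2(CPM + 1), with TMM scaling within each line, in each library (circle, sg1; triangle, sg2) of the 10 conditions; bars are means of the 2 values. *ADAR* KO libraries lie above *GFP* libraries for all subunits in HCC366, NCI-H1650 and A549 with IFN-β, and the 2 vehicle conditions of A549 lie close together.

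The family was proposed with effects of *ADAR* KO in these data in view, so the values after *ADAR* KO that follow are a description, given without p-values. A subunit is said to pass where its adjusted p in the fit over all genes was under 0.05, and the share of all genes that pass is printed as background from which nothing is read. Fewer cells expressing a gene and less RNA of it per cell cannot be told apart in these bulk libraries.

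*FOS*, the prototype immediate-early subunit, was low in *GFP* cells and higher in *ADAR* KO cells of all 3 dependent lines. In HCC366 it was at 3.10 and 2.29 CPM in *GFP* libraries, which are 4 and 8 reads, and at 21 and 51.7 CPM in *ADAR* libraries, a log2 fold change of 3.81 ± 0.60 (SE). In NCI-H1650 it went from 15.2 and 13.9 CPM to 39.2 and 51.9 CPM (1.64 ± 0.17). In NCI-H196 the *GFP* libraries had 7.58 and 0 CPM, from 68 reads and 0 reads, and the *ADAR* libraries 34.5 and 35.8 CPM (2.24 ± 0.22). The count of 0 allows up to 3 reads, or 44 CPM at that depth, so this library alone does not separate the groups. The *FOS* ranges of the *GFP* and *ADAR* libraries did not overlap in any of these lines.

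*FOSB*, the closest relative of *FOS*, had the same order. HCC366 had 7.75 and 4.87 CPM with *GFP* and 23.6 and 78.2 CPM with *ADAR* sgRNAs (3.11 ± 0.62). NCI-H1650 had 26.7 and 25.8 CPM against 66.1 and 70.3 CPM (1.38 ± 0.14). NCI-H196 had 12.3 and 14.7 CPM (110 reads and 1 read) against 39.6 and 43.5 CPM (1.80 ± 0.19). The sgRNAs gave close values in NCI-H1650, while the *ADAR* sg2 library of HCC366 was far above its sg1 library.

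The FRA genes, abundant before KO, had smaller log2 fold changes than *FOS* and *FOSB* in all 3 lines. *FOSL1* was at 137 and 77.4 CPM in HCC366 *GFP* and 276 and 693 CPM in *ADAR* KO cells (2.19 ± 0.49). It was at 67.9 and 64.5 CPM against 109 and 109 CPM in NCI-H1650 (0.72 ± 0.12), and at 76.9 and 44 CPM against 119.8 and 137 CPM in NCI-H196 (0.80 ± 0.11). *FOSL1* thus differed by under 2-fold in NCI-H1650 and NCI-H196 (1.65-fold and 1.74-fold). *FOSL2* was at 349 and 319 CPM against 620.2 and 1056 CPM in HCC366 (1.33 ± 0.35), at 297 and 267 CPM against 469.9 and 521 CPM in NCI-H1650 (0.81 ± 0.10), and at 309 and 219.9 CPM against 375 and 430.3 CPM in NCI-H196 (0.43 ± 0.11). Both FRA genes had separate ranges in the 3 lines. In NCI-H196 the GFP sg2 values rest on 3 reads for *FOSL1* and 15 for *FOSL2*, so that library sets the separation only loosely.

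*JUN* had the largest change of the JUN family in HCC366 and NCI-H1650. In HCC366 it was at 212 and 176 CPM with *GFP* and 669 and 1749 CPM with *ADAR* sgRNAs (2.64 ± 0.46). NCI-H1650 had 209 and 177 CPM against 423 and 473 CPM (1.21 ± 0.11), and NCI-H196 had 177 and 132 CPM against 337 and 367 CPM (1.03 ± 0.11). With scaling over all 20 libraries, the lowest *JUN* value of any *ADAR* library in the 3 lines was 74.1 RPKM. The highest of any *GFP* library was 54 RPKM.

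*JUNB*, which can dampen JUN activity as well as activate genes, had 65.8 and 69 CPM against 78.7 and 147 CPM in HCC366 (0.74 ± 0.39) and 152 and 125 CPM against 174 and 171 CPM in NCI-H1650 (0.31 ± 0.11). NCI-H196 had the largest *JUNB* value of the 3 lines, 65.6 and 58.6 CPM against 136 and 155 CPM (1.2 ± 0.11). *JUND* had 59.6 and 48.4 CPM against 71.7 and 270.3 CPM in HCC366 (1.68 ± 0.56), 133 and 118 CPM against 167 and 144 CPM in NCI-H1650 (0.31 ± 0.11), and 78 and 44 CPM against 75.1 and 110.3 CPM in NCI-H196 (0.41 ± 0.12). The *JUND* ranges overlapped in NCI-H196, the only such overlap among the 7 subunits in the 3 dependent lines. The NCI-H196 *JUND* value was 0.03 without ADAR sg2 and 1.24 without GFP sg1. In NCI-H1650, *JUNB* was at 0.15 and *JUND* at 0.20 without GFP sg2, *JUNB* was at 0.47 without GFP sg1, and *JUND* was at 0.19 without ADAR sg1.

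Counted over the family, 2 of 7 subunits passed in HCC366 (*FOS* and *JUN*, all higher; 1.2% of 11135 genes passed as higher), 5 of 7 in NCI-H1650 (all but *JUNB* and *JUND*; 6.18% of 14530 genes) and 7 of 7 in NCI-H196 (10.3% of 14094 genes). No subunit passed as lower, as 0.0449%, 2.42% and 7.5% of genes did. Both *ADAR* libraries lay above both *GFP* libraries for 7, 7 and 6 subunits, as they did for 25.1%, 26.2% and 25.6% of genes. In NCI-H196, GFP sg2 had only 0 to 15 reads per subunit. Over the 7 subunits the median log2 fold change was 2.19 for HCC366, 0.81 for NCI-H1650 and 1.03 for NCI-H196, and that of all genes tested was within 0.01 of 0 in each line. The HCC366 count rests on single libraries, and so does the number of all genes that passed. Both are given below for fits without 1 library. Without ADAR sg2 the values were 2.05 for *FOSB*, 1.45 for *FOSL1*, 0.24 for *JUNB* and 0.46 for *JUND*. Without ADAR sg1 they were 3.74, 2.73, 1.10 and 2.34 in that order. With offsets for GC content and length, HCC366 *JUND* was at 0.73 and *JUNB* at 0.10, while *FOS* was at 3.55 and *JUN* at 2.18. The NCI-H196 count likewise moved when 1 library was left out. Without GFP sg1 the 62679-count library is the only control, and *FOSL1* was at 1.61 and *FOSL2* at 0.91. DESeq2 passed 0 of the 5 subunits to which it gave an adjusted p (4 had an unadjusted p under 0.05).

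**Figure D2:**
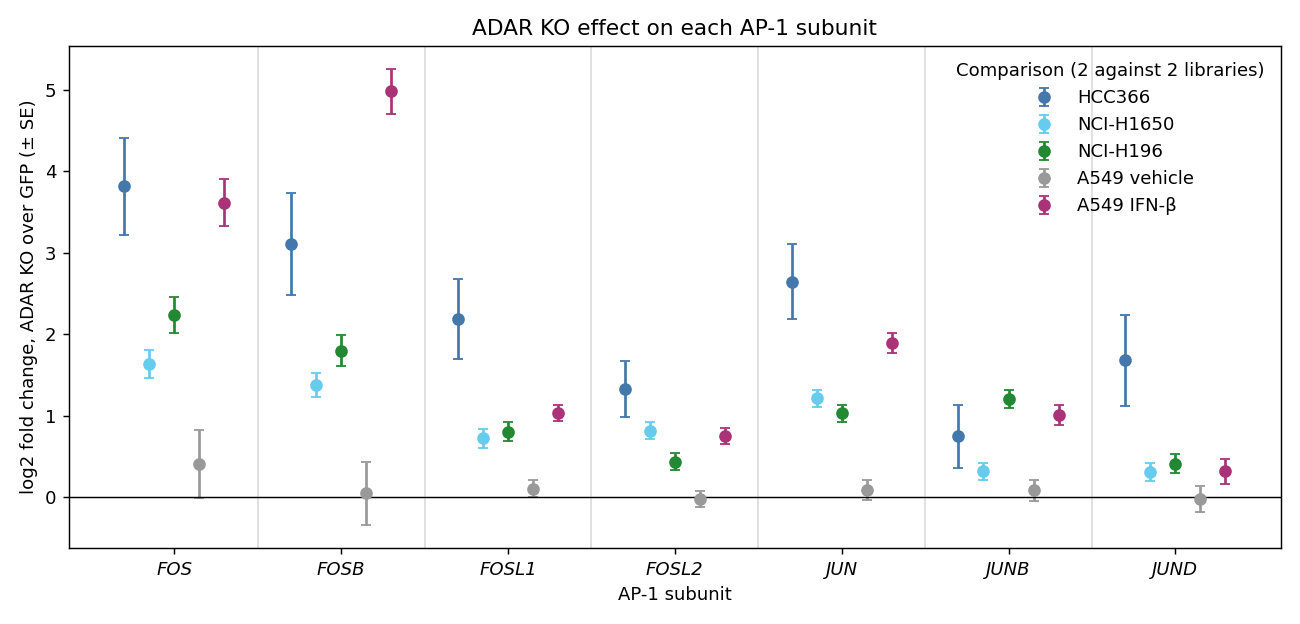
Log2 fold change of each subunit in *ADAR* KO over *GFP* cells, with bars of ± 1 SE, in 5 comparisons of 2 against 2 libraries. Values for A549 with vehicle lie between -0.02 and 0.41, and *FOS*, *FOSB* and *JUN* have the largest values of their comparison in HCC366, NCI-H1650 and A549 with IFN-β.

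Differences between the effects in the 3 lines were taken from 1 fit of all 20 libraries and are also given as a description. The effect in HCC366 exceeded that in NCI-H1650 by 2.18 ± 0.58 for *FOS*, 1.76 ± 0.48 for *FOSB*, 1.45 ± 0.37 for *FOSL1* and 1.37 ± 0.35 for *JUN*, the 4 subunits that passed (2.21% of 19523 genes passed in either direction). It exceeded that in NCI-H196 by 1.55 ± 0.38 for *JUN*, the only subunit to pass there (2.41% of genes). None passed between NCI-H1650 and NCI-H196 (0.00512% of genes, which is 1 gene), where *JUNB* had the largest difference, -0.83 ± 0.31. Without HCC366 ADAR sg2, or without HCC366 GFP sg2, none of the 5 passed, and the *JUN* differences were 0.55 and 0.79 without ADAR sg2. Without HCC366 ADAR sg1 the *JUN* differences were 1.81 from NCI-H1650 and 2.06 from NCI-H196.

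A549 cells with vehicle showed little difference between *ADAR* and *GFP* sgRNAs. *FOS* was at 2.24 and 1.13 CPM with *GFP* and 1.95 and 2.14 CPM with *ADAR* sgRNAs, a log2 fold change of 0.41 ± 0.42, from 16 to 21 reads per library. *FOSB* was at 1.32 and 1.79 CPM against 1.83 and 1.53 CPM (0.04 ± 0.39). *FOSL1* had 127 and 136 CPM against 142 and 140.4 CPM (0.10 ± 0.10), the only subunit with both *ADAR* libraries above both *GFP* libraries (18.8% of genes). *FOSL2* had 553 and 564 CPM against 551 and 551 CPM (-0.02 ± 0.10, 95% interval -0.21 to 0.17). *JUN* was at 111 and 108 CPM against 110.5 and 121 CPM (0.08 ± 0.12), *JUNB* at 55.7 and 61.9 CPM against 61.6 and 63.4 CPM (0.08 ± 0.13), and *JUND* at 35.4 and 40.6 CPM against 33.2 and 41.8 CPM (-0.02 ± 0.16). By edgeR, 0 of 7 passed, and 0 had an unadjusted p under 0.05 (0.123% of 15449 genes passed in either direction, and 0.0324% as higher).

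IFN-β alone was tested in *GFP* A549 cells, a contrast that holds no *ADAR* KO library. IFN-β is a type I interferon that acts through STAT transcription factors, and *ADAR* itself, which has an interferon-inducible promoter, rose by 1.47 ± 0.13 (edgeR adjusted p = 6.81e-10). Of the subunits, 0 of 7 passed by edgeR, 2 had an unadjusted p under 0.05 by edgeR and 2 by DESeq2, and 5.7% of genes passed in either direction. *FOSL1* was nearest to the threshold, at 127 and 136 CPM with vehicle and 175 and 156 CPM with IFN-β (0.33 ± 0.10, edgeR adjusted p = 0.0561). *JUNB* was at 55.7 and 61.9 CPM against 64.1 and 88 CPM (0.37 ± 0.13, edgeR adjusted p = 0.0903). *FOS* had 2.24 and 1.13 CPM against 1.5 and 2.55 CPM (0.44 ± 0.39, edgeR adjusted p = 0.676), and *FOSB* 1.32 and 1.79 CPM against 1.41 and 0.931 CPM (-0.51 ± 0.39, edgeR adjusted p = 0.603). *FOSL2* had 553 and 564 CPM against 624 and 625 CPM (0.16 ± 0.10), and *JUN* 111 and 108 CPM against 113 and 136 CPM (0.19 ± 0.12). *JUND* had 35.4 and 40.6 CPM against 32.4 and 47.9 CPM (0.08 ± 0.15). *FOS* and *FOSB* had 10 to 41 reads per library in this comparison, which limits their precision.

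With IFN-β and *ADAR* KO together, every subunit was above its level in the other 3 A549 conditions. *FOSB* was at 30.9 and 40.8 CPM, against 1.41 and 0.931 CPM in *GFP* cells with IFN-β, a log2 fold change of 4.98 ± 0.28, which was the largest of any subunit in the 5 KO comparisons. *FOS* was at 21.1 and 30.1 CPM against 1.5 and 2.55 CPM (3.62 ± 0.29). *JUN* was at 391 and 533 CPM against 113 and 136 CPM (1.89 ± 0.12). These 3 subunits lay more than 2-fold above the control, as did *FOSL1* and *JUNB* by a small margin.
*FOSL1* was at 311 and 364 CPM against 175 and 156 CPM (1.03 ± 0.10, 2.04-fold), and *JUNB* at 146 and 161 CPM against 64.1 and 88 CPM (1.01 ± 0.12, 2.01-fold). *FOSL2* was at 975 and 1122 CPM against 624 and 625 CPM (0.75 ± 0.10). *JUND* had 51.7 and 49.2 CPM against 32.4 and 47.9 CPM (0.32 ± 0.15), with the *GFP* sg2 library just below the *ADAR* libraries. It was 0.07 without GFP sg1 and, now passing, 0.64 without GFP sg2. In this comparison 6 of 7 subunits passed as higher, all but *JUND* (10.8% of genes passed as higher), and both *ADAR* libraries exceeded both *GFP* libraries for 7 of 7 (28.2% of genes). Summed epithelial markers were 4129 to 5469 CPM in the *GFP* and 3257 to 3477 CPM in the *ADAR* libraries with IFN-β, and summed fibroblast markers 48.1 to 77.4 CPM and 34.7 to 41.6 CPM, and their part in these values was not tested.

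The interaction compares the KO effect with IFN-β to that with vehicle. It was 4.94 ± 0.50 for *FOSB*, 3.21 ± 0.52 for *FOS*, 1.81 ± 0.17 for *JUN*, 0.93 ± 0.15 for *FOSL1*, 0.93 ± 0.18 for *JUNB*, 0.77 ± 0.14 for *FOSL2* and 0.34 ± 0.22 for *JUND*. All but *JUND* passed as higher (4.07% of genes). When all 20 libraries shared 1 fit, the count was 3. The *JUND* interaction was 0.10 without GFP IFN-β sg1 and 0.66 without GFP IFN-β sg2. The effect of IFN-β within *ADAR* KO cells, which shares its libraries with the interaction, was 3.65 ± 0.30 for *FOS*, 4.43 ± 0.28 for *FOSB*, 2.00 ± 0.12 for *JUN* and 0.42 ± 0.16 for *JUND*, and 7 of 7 passed as higher (15.5% of genes). *JUND* passed in only some of the fits that left out 1 library, and was lowest, at 0.28, without the vehicle library of ADAR sg1. Against the vehicle libraries of *ADAR* KO cells (110.5 and 121 CPM), *JUN* was at 391 and 533 CPM.

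The make-up of subunit RNA was summed per library as RPKM over the 7 genes. The sum was 230 and 186 in HCC366 *GFP* and 474 and 1100 in HCC366 *ADAR* KO cells. It was 265 and 227 against 397 and 411 in NCI-H1650, 186 and 106 against 271 and 349 in NCI-H196, and 318 and 343 against 619 and 741 in A549 with IFN-β. In A549 with vehicle the sum was 272 and 295 with *GFP* and 286 and 299.6 with *ADAR* sgRNAs. The share of *JUN* was 23.5% and 24.5% in HCC366 *GFP* and 36.3% and 38.7% in *ADAR* KO libraries. It was 19.4% and 18.9% against 26.2% and 28.5% in NCI-H1650, 22.8% and 24.6% against 27.4% and 25.6% in NCI-H196, and 11.9% and 13.4% against 20.5% and 23.5% in A549 with IFN-β. *FOS* made up no more than 3.55% of the family RNA in any library and *FOSB* no more than 2.76%, both in NCI-H1650 *ADAR* sg2.

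**Figure D3:**
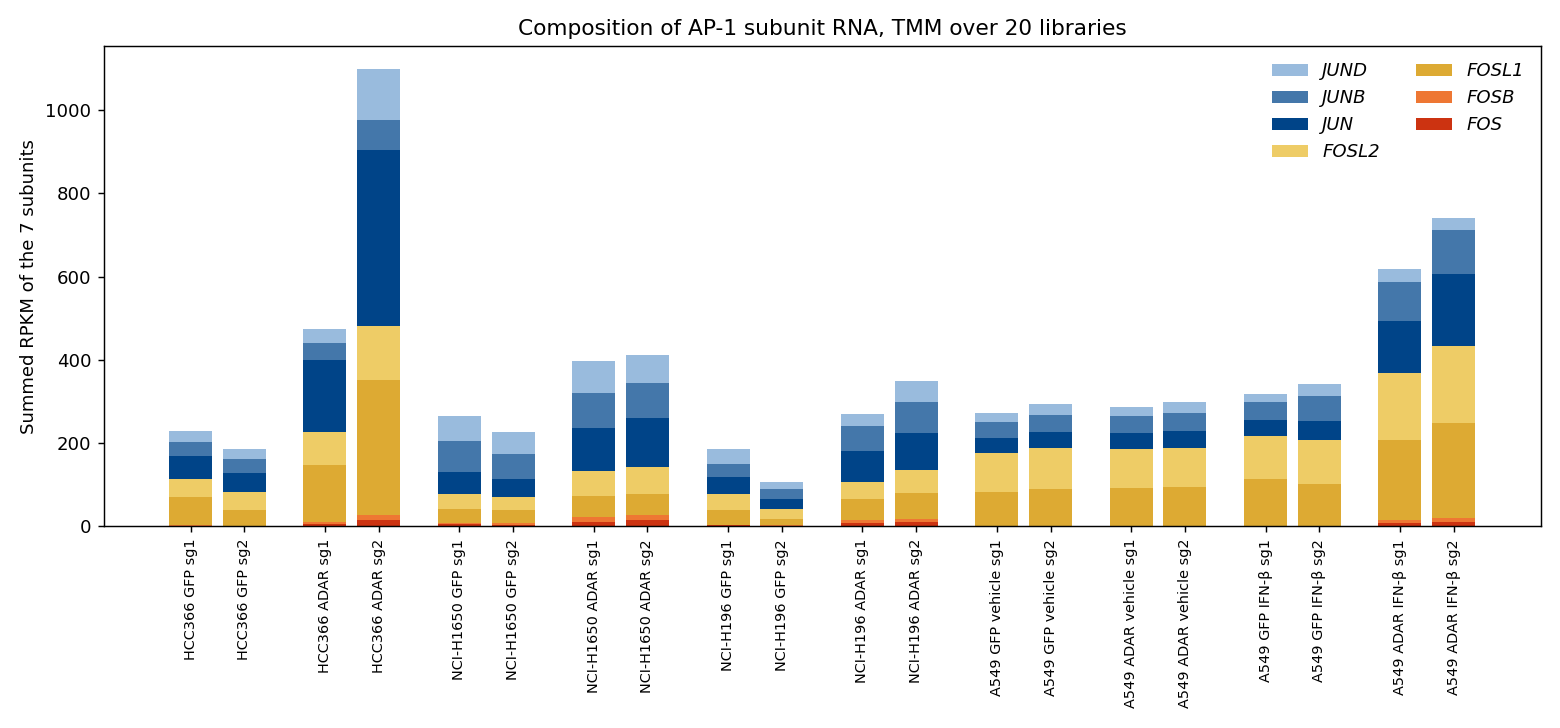
Summed RPKM of the 7 subunits in each of the 20 libraries, stacked by subunit, with FOS-family genes in red and yellow and JUN-family genes in blue. The tallest bars are HCC366 ADAR sg2 (1100 RPKM) and the A549 *ADAR* KO libraries with IFN-β (619 and 741 RPKM), and *FOS* and *FOSB* are thin bands at the base.

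Across conditions, the highest mean level of *FOSL2* (172 ± 18 RPKM) and *JUNB* (98.8 ± 7.65 RPKM) was in A549 *ADAR* KO cells with IFN-β. *JUN* (299 ± 179 RPKM), *FOSL1* (230.1 ± 132 RPKM) and *JUND* (79.1 ± 62.8 RPKM) were highest in HCC366 *ADAR* KO cells, where the 2 libraries differed widely, and the ranges of all 3 overlapped those of the condition next in order. For *FOS* and *FOSB* the top condition was NCI-H1650 *ADAR* KO (12.8 ± 2.56 and 11 ± 0.505 RPKM). The *FOS* and *FOSB* values of HCC366 and of IFN-β-treated A549 *ADAR* KO cells overlapped with the neighbours in this order. After *ADAR* KO, mean *FOS* levels in the 3 dependent lines and in A549 with IFN-β lay between 9.27 and 12.8 RPKM. Single libraries of these conditions ran from 6.14 to 14.6 RPKM. Mean *GFP* levels of the same 4 comparisons lay between 0.771 and 4.04 RPKM, with single libraries from 0 to 4.27 RPKM.

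Genes that work with AP-1 were described from lists, also chosen with earlier results known. Of 13 dimer partners, such as the ATF and MAF proteins, 2 of 10 tested passed as higher in HCC366, 7 of 12 in NCI-H1650, 7 of 11 in NCI-H196, 0 of 10 in A549 with vehicle and 7 of 10 in A549 with IFN-β. Among all genes, 1.2%, 6.18%, 10.3%, 0.0324% and 10.8% passed as higher in these comparisons. The partners' median log2 fold change was 1.77, 0.49, 0.50, -0.03 and 0.64 in the same order. *ATF3*, a stress-induced leucine zipper protein that dimerizes with JUN proteins, went from 34.1 and 36.1 CPM to 456 and 795 CPM in HCC366 (4.15 ± 0.40) and from 7.41 and 4.78 CPM to 115 and 167 CPM in A549 with IFN-β (4.57 ± 0.20). *MAFF*, a small MAF protein, differed by 3.30 ± 0.54 on the log2 scale in HCC366, by 1.23 ± 0.11 in NCI-H1650, and by 2.82 ± 0.20 in A549 with IFN-β. In NCI-H196, *ATF3* differed by 1.57 ± 0.12. *BATF2* rose with IFN-β in *GFP* A549 cells, from 0.792 and 0.664 CPM to 89.1 and 91.3 CPM (6.97 ± 0.22), and *MAFF* by 0.82 ± 0.25, the 2 of 10 partners that passed there (5.7% of all genes passed in either direction). *BATF2* was at 145 and 162 CPM in A549 *ADAR* KO cells with IFN-β. In HCC366 it had 3.10 and 9.17 CPM with *GFP* and 14.9 and 35.6 CPM with *ADAR* sgRNAs. The *BATF2* ranges overlapped in NCI-H196 and in A549 with vehicle.

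Upstream kinases and factors, including the ERK, JNK and p38 kinases and the ternary complex factors, are listed next. None of 17 tested passed in HCC366, NCI-H1650 or A549 with vehicle. Of all genes, 1.2%, 6.18% and 0.0324% passed as higher there, so 0 of 17 is near the background. In NCI-H196, 2 of 18 passed, *MAPK10* (1.47 ± 0.48) and *MEF2D* (0.41 ± 0.11), near the 10.3% of all genes that passed as higher. *MAPK10* had low counts, at 1.56 and 0 CPM with *GFP* and 4.06 and 4.39 CPM with *ADAR* sgRNAs. Its 0 is from GFP sg2, in which 1 read equals 14.7 CPM. In A549 with IFN-β, 4 of 17 passed (10.8% of all genes), led by *CREB1* (0.87 ± 0.13) and *MEF2D* (0.58 ± 0.11), whose products are known to bind the promoters of *FOS* and *JUN*, respectively. The median log2 fold change of this list lay between -0.05 in HCC366 and 0.13 in A549 with IFN-β. RNA levels do not show whether a kinase is active.

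Known AP-1 target genes passed as higher for 1 of 14 in HCC366, 7 of 15 in NCI-H1650, 5 of 13 in NCI-H196, 0 of 13 in A549 with vehicle and 10 of 13 in A549 with IFN-β, with none lower, against 1.2%, 6.18%, 10.3%, 0.0324% and 10.8% of all genes. Their medians were 0.91, 0.43, 0.22, 0.00 and 0.71. *CXCL8*, the neutrophil chemokine interleukin-8, went from 36.4 and 35 CPM to 338 and 188 CPM in HCC366 (2.88 ± 0.40), and from 5.35 and 5.34 CPM to 95 and 180.2 CPM in A549 with IFN-β (4.69 ± 0.24). *IL6*, a cytokine gene, had log2 fold changes of 1.15 ± 0.11 (NCI-H1650), 1.43 ± 0.11 (NCI-H196) and 2.50 ± 0.15 (A549 with IFN-β). *LIF*, of the same cytokine family, led in NCI-H196 (1.61 ± 0.11). With IFN-β in *GFP* A549 cells, 3 of 13 passed (5.7% of all genes in either direction), among them *IL6* (0.65 ± 0.16).

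Other immediate-early genes, which share rapid induction with *FOS*, passed as higher for 2 of 12 in HCC366, 11 of 15 in NCI-H1650, 14 of 15 in NCI-H196, 1 of 14 in A549 with vehicle and 13 of 14 in A549 with IFN-β (all genes, in this order: 1.2%, 6.18%, 10.3%, 0.0324% and 10.8%). Their medians were 1.42, 0.95, 1.12, 0.03 and 1.24. *EGR1*, a zinc finger factor, was at 2.32 and 4.01 CPM in HCC366 *GFP* and 94.5 and 241 CPM in *ADAR* KO libraries (5.59 ± 0.61). In A549 it was at 0.792 and 0.332 CPM with vehicle and *GFP* sgRNAs, at 1.95 and 4.98 CPM with vehicle and *ADAR* sgRNAs (2.85 ± 0.55), and at 309 and 498 CPM with IFN-β and *ADAR* sgRNAs, against 1.59 and 0.994 CPM in *GFP* cells (8.34 ± 0.26). *EGR1* was the only gene of the 4 lists to pass in A549 with vehicle. *KLF4* had 2.77 ± 0.45 in HCC366, and the low-count genes *EGR2* (3.03 ± 0.55) and *EGR3* (2.15 ± 0.48) led in NCI-H1650, as did *EGR3* (4.11 ± 0.62) and *EGR1* (3.34 ± 0.16) in NCI-H196. With IFN-β in *GFP* A549 cells, 3 of 14 passed (5.7% of all genes in either direction), with *KLF6* (0.71 ± 0.12) and *NR4A1* (0.69 ± 0.14) leading.

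**Figure D4:**
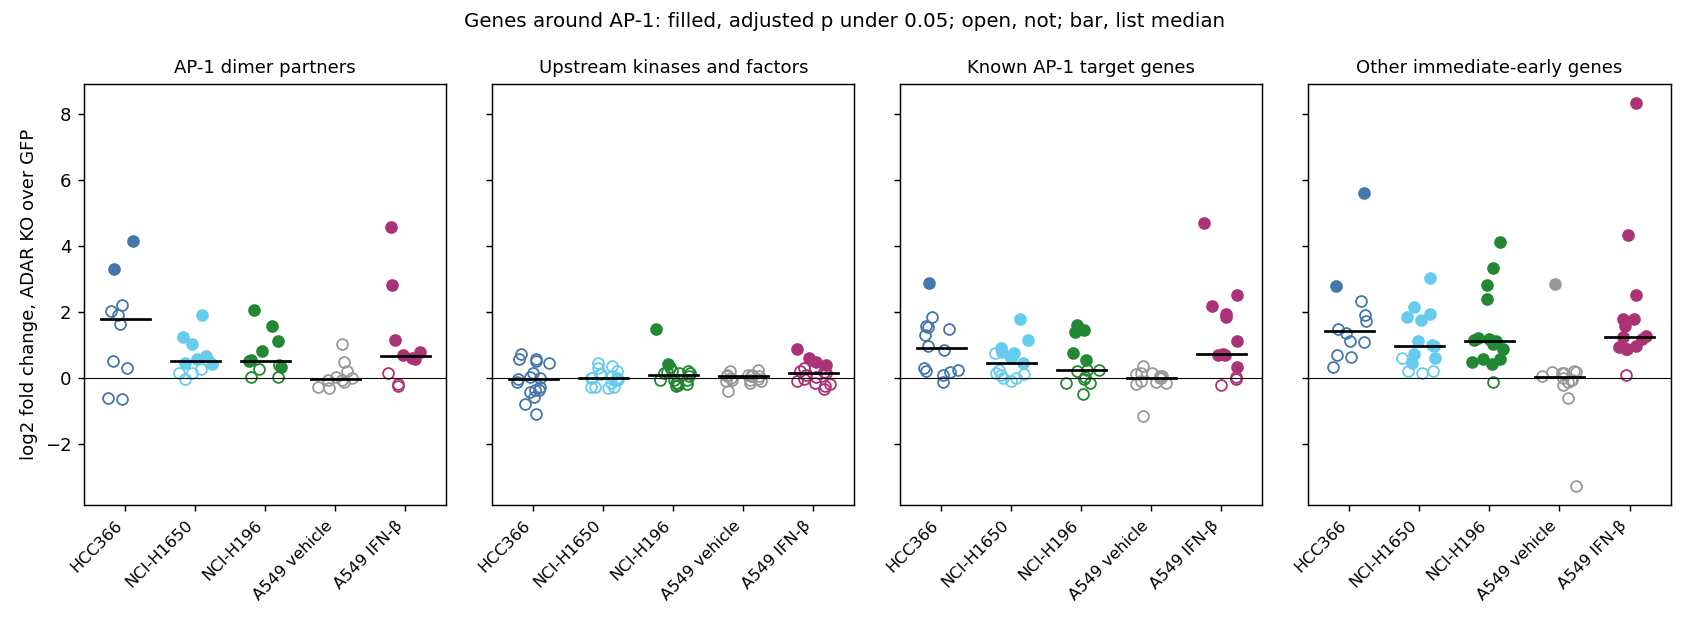
Log2 fold change in *ADAR* KO over *GFP* cells of the tested genes of 4 lists in 5 comparisons, with filled points for an adjusted p under 0.05 and bars at the list medians. Upstream kinases and factors center near 0 throughout, and *EGR1* in A549 with IFN-β is the highest point at 8.34.

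Patterns across libraries were compared by Pearson's r of log2 CPM over the 20 libraries, each line centred on its own mean, as a description with 19516 other genes as the field. Such r values share libraries, depth and the common *ADAR* KO contrast. The gene most like *JUN* was *GADD45A* (r = 0.990), a stress-response gene, followed by *PPP1R15A* (0.989), whose product restores translation after stress, and *CSRNP1* (0.984). *FOS* was most like *CYP1A1* (0.986), a target of the aryl hydrocarbon receptor, then *AMOTL2* (0.972) and *ZNF317* (0.969). Without NCI-H196 GFP sg2, the library with no *FOS* read, these 3 ranked 1, 3 and 11. *FOSB* was most like the clock gene *PER1* (0.976), *KDM6B* (0.974) and *NOCT* (0.961). *FOSL1* was most like *CARS1* (0.977), *MAP2K3* (0.968) and *PLEKHO2* (0.966), and *FOSL2* was most like *XBP1* (0.982), *CXCL2* (0.976) and *INO80* (0.973). *JUNB* followed *AMOTL2* (0.956), *SOCS3* (0.952) and *NFKB2* (0.948), and *JUND* followed *IER5* (0.972), *TAOK2* (0.957) and *PLEKHM2* (0.956). The first-ranked gene of each subunit was also first over the 19 libraries without NCI-H196 GFP sg2, while *PLEKHO2* ranked 7 for *FOSL1* and the other genes named ranked 2 to 5, apart from *ZNF317*. Among the subunits themselves, r ran from 0.594 for *FOSB* and *JUND* to 0.974 for *FOSL2* and *JUN*. No r was taken without HCC366 ADAR sg2, in which *JUND* was at 270.3 CPM and *IER5* at 274 CPM. In HCC366 ADAR sg1 they were at 71.7 and 87.5 CPM. The part of HCC366 ADAR sg2 in these r values was not tested.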

How the data were processed

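Count tables of 20 libraries, deposited by the authors as raw HTSeq read counts per gene, were used. RNA was depleted of ribosomal RNA, prepared as directional libraries and sequenced as 150-bp paired ends, and reads were aligned by the authors to hg19 with STAR. Versions, annotation and the strand setting of the counting are not given in the sources used here, and their own testing used DESeq2. HTSeq's summary lines, 51.3% to 93.3% of its total, were left out. Of the gene identifiers, 55727 matched a symbol in the reference gene name table, with 97.4% of counts.

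Genes were filtered by condition (filterByExpr), scaled by TMM and tested with edgeR 4.0.16's quasi-likelihood F test in R 4.3.3, with Benjamini-Hochberg adjustment over all genes tested and a threshold of 0.05. The 3 untreated lines were fitted separately (4 libraries each), A549 in 1 fit of 8 libraries, and comparisons between lines in 1 fit of 20 libraries. The test was checked on simulated data for *ADAR* KO in the 3 dependent lines and in A549 with IFN-β, and for the interaction. The other comparisons, among them those between lines and of IFN-β in *GFP* cells, were not simulated. All 7 subunits passed the low-count filter in every fit. Named genes were the 7 subunits, *ADAR*, the 2 genes of each of 4 lists with the largest absolute log2 fold change among those that passed in a comparison, and the 3 genes most correlated with each subunit. Some genes that this rule names are not reported here. The subunits and lists were chosen with earlier results of these data known. DESeq2 1.42.0, other filters, scalings and offsets, a block for the sgRNA number and leaving out each library were alternatives. Replicates are sgRNA numbers, so p-values measure the spread between sgRNAs. In A549, cells with 1 sgRNA gave both a vehicle and an IFN-β library, and the correlation of their deviations from the group means was -0.0592 in *GFP* and -0.00477 in *ADAR* KO cells.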

Additional observations from a re-analysis of the deposited data

Results flagged for a closer look

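Effects of *ADAR* KO that differed between 2 settings, by the fit's own term for the difference, are listed with their sizes, and since the subunits were proposed with such effects known they are a description. Between IFN-β and vehicle in A549, the KO effect differed by 4.94 for *FOSB*, 3.21 for *FOS*, 1.81 for *JUN*, 0.93 for *FOSL1*, 0.93 for *JUNB* and 0.77 for *FOSL2* on the log2 scale. Between HCC366 and NCI-H1650 it differed by 2.18 for *FOS*, 1.76 for *FOSB*, 1.45 for *FOSL1* and 1.37 for *JUN*, and between HCC366 and NCI-H196 by 1.55 for *JUN*. None of these last 5 passed without HCC366 ADAR sg2 or without HCC366 GFP sg2. No condition had more than 2 libraries, so single libraries were not tested as outliers.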

How the results depend on the processing

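The number of subunits that passed after *ADAR* KO in HCC366 (2) was 5 with DESeq2, 6 without the low-count filter, 7 in 1 fit of all libraries, 5 with GC and length offsets, 4 with a replicate block for the sgRNA number, 6 with that block and the offsets, and 6 with a crossed block chosen after seeing the data, since deviations of same-numbered libraries had r = -0.253. Leaving out 1 library gave 0 to 7. In NCI-H196 (7) it was 0 with DESeq2, 3 in 1 fit of all libraries, 4 with the replicate block and 2 with block and offsets, and 0 to 7 when 1 library was left out. The interaction in A549 (6) was 3 in 1 fit of all libraries and 6 in every fit without 1 library. IFN-β in *GFP* A549 cells (0) gave 1 without the filter, 2 with block and offsets, and 0 to 1 when 1 library was left out. Differences between lines (5) were 2 with DESeq2 and 0 to 12 when 1 library was left out. The counts for NCI-H1650 (5 to 6), A549 with IFN-β (6 to 7), IFN-β in *ADAR* KO cells (6 to 7) and the lines in *GFP* cells (15 to 22) stayed within 1.5 times of the value given when 1 library was left out, and A549 with vehicle stayed at 0. The replicate block gave 5, 6, 7 and 22 in these and changed no count in A549. The causes of these changes were not tested.

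Over all genes, HCC366 had 139 that passed, against 308 with DESeq2, 903 without the filter, 3701 in 1 fit of all libraries, 940 with offsets, 300 with the replicate block, and 9 to 6408 without 1 library. NCI-H196 had 2513, against 11, 1552, 98, 1738, 115 and 41 to 3041. NCI-H1650 had 1250, against 389 with DESeq2, 159 in 1 fit of all libraries and 542 to 1110 without 1 library (542 without GFP sg1, 575 without GFP sg2). A549 with vehicle had 19, against 4 with DESeq2, 30 without the filter, 5 in 1 fit of all libraries and 3 to 22 without 1 library. With 1 library left out, A549 with IFN-β (2622) had 689 (without ADAR IFN-β sg2) to 3581, the interaction (780) 253 (without ADAR IFN-β sg2) to 1663 (without GFP IFN-β sg1), IFN-β in *GFP* cells (880) 517 (without GFP vehicle sg2) to 1245, and IFN-β in *ADAR* KO cells (3788) 1774 (without ADAR IFN-β sg2) to 4568. In 1 fit of all libraries these 4 were 1087, 164, 531 and 2067. The shares of all genes that passed move with these counts.

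Some small values changed sign. *JUND* in NCI-H196 was -0.10 with block and offsets. In A549 with vehicle, offsets gave 0.0205 for *FOSL2* and 0.0046 for *JUND*, and offsets with the block 0.0206 and 0.0102, while leaving out 1 library gave -0.13 to 0.85 for *FOS*, -0.11 to 0.34 for *FOSB* and -0.20 to 0.13 for *JUND*. For IFN-β in *GFP* A549 cells, *JUND* was -0.0286 with offsets and -0.025 with offsets and the block, and leaving out 1 library gave -0.10 to 0.87 for *FOS* and -0.24 to 0.33 for *JUND*. *FOS* in NCI-H196 had no value without GFP sg1, since the other *GFP* library had no *FOS* read. Depth limits NCI-H196 GFP sg2 most, at 62679 counts.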
